A study of Homo sapiens with 16 samples.

Results

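The late response to inhibition of RNA polymerase I was described from the 2 libraries of wild-type HAP1 cells given BMH-21 for 5 h, set against the 2 libraries of untreated cells, which are 4 of the 16 samples in the series. They were taken by their labels from all 3 deposited tables. HAP1 is a near-haploid line derived from KBM-7, a human leukaemia line. BMH-21, an inhibitor of RNA polymerase I, was given at 1 µM for 5 h, and the untreated cells received no inhibitor. In both groups 4-thiouridine (4-SU), a uridine analogue, was present at 1 mM for the last 30 min, and yeast RNA was added at lysis as a spike-in. RNA that carried 4-SU was biotinylated, pulled down and sequenced (TT-chem-seq), so a level is the RNA made or labelled in that window. For comparison, 2 libraries each were used of cells given BMH-21 for 1 h and of cells given no 4-SU. Also used were 2 libraries of cells given the RNA polymerase III inhibitor ML-60218 at 20 µM for 5 h. A further 2 libraries, of cells given ML-60218 at 20 µM for 1 h, entered the fit only for scaling and the spread. Cells given DRB, labelled as RNA polymerase II inhibition, at 100 µM for 1 h or 5 h (2 libraries each) entered alternative fits only. The replicates are labelled biological, with no word on separate cultures, so p-values measure only the spread between these libraries, which may be technical.

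RNA polymerase I makes 1 long precursor, the 45S RNA, that is cut inside the nucleolus into all the ribosomal RNAs but the 5S. RNA polymerase III makes the 5S ribosomal RNA and the tRNAs, and RNA polymerase II makes mRNA, including those of the ribosomal proteins. In human cells with functional p53, a block of ribosomal RNA synthesis frees ribosomal proteins such as RPL5 and RPL11 to bind MDM2, the ligase that keeps p53 low, and p53 then activates genes of cell cycle arrest and repair. BMH-21 binds GC-rich DNA and leads to loss of the largest polymerase I subunit.

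The libraries held 66547262 and 50194346 tags after 5 h of BMH-21 and 46098624 and 67324519 tags in untreated cells. A tag is an aligned read, and each mate of a pair counts 0.5. The mRNA table, which covers gene bodies of 9944 selected genes, took 4.59% and 4.70% of the tags after BMH-21 and 2.23% and 2.49% in untreated cells. Because this share differed, each value was divided by its library's mRNA total with a TMM factor. The result is called mRNA-scaled tags and is relative to typical mRNA unless the spike-in scale is named. Tested genes differed between the 2 replicates by a median of 0.153 after BMH-21 and 0.194 in untreated cells on the log2 scale. Of 23 blood lineage genes listed, 9 were in the mRNA table and 4 passed the filter of a mean of 10 tags (KIT, CD38, LYL1 and PROM1). GATA1 had a mean of 9.12 tags over the 4 libraries, SPI1 6 and CD33 0 tags, and none of the 4 tested genes passed the test after BMH-21.

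The 45S precursor, the product of the targeted polymerase, was lower after 5 h of BMH-21 than in untreated cells. On the spike-in scale, which sets each untreated library to 100%, the BMH-21 5 h libraries reached 45.6% and 47.7% of the equally numbered untreated library (mean 46.6 ± 1.47%, SD, n = 2). The 2 replicates lay close together, far under the untreated level. In a bulk sample, fewer cells that make a given RNA and less of it in each cell cannot be told apart. Cells without 4-SU gave 7.33% and 14.8% on this scale, which is the unlabelled carry-over. After 1 h of BMH-21 the 45S level was 18.4% and 25.6%, so both 5 h libraries lay above both 1 h libraries. The share of all tags on 45S units was 54.2% and 50.5% after BMH-21, against 68.2% and 64.1% in untreated cells. Cells without 4-SU had shares of 56.2% and 57.1%, above both BMH-21 libraries, so this share does not measure labelled 45S RNA alone.

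**Figure D1:**
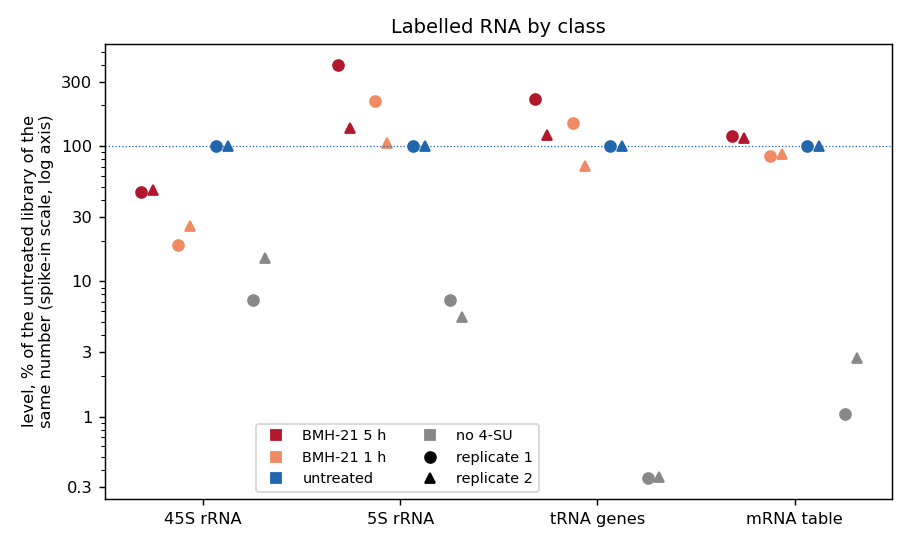
Labelled RNA of each class as a percentage of the untreated library with the same replicate number, on the spike-in scale with a log axis; each point is 1 library, and untreated points are at 100% by construction. The 45S level was 45.6% and 47.7% after 5 h of BMH-21, and the 5S and tRNA levels of BMH-21 5 h replicate 1 lay above those of replicate 2.

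Relative to mRNA, 45S tags were 4006200 and 3682800 mRNA-scaled tags after BMH-21 and 10555000 and 9004000 in untreated cells, with no overlap between the groups. This is a fall to 0.394 of the untreated level (log2 change -1.34, SE 0.215, limma adjusted p = 0.00633). The adjusted p was 0.0663 without BMH-21 5 h replicate 1 and 0.0816 without untreated replicate 1. On the spike-in scale the log2 change was -1.10 (SE 0.294, limma adjusted p = 0.0212, replicate number as a block), and it did not pass without the block (adjusted p = 0.206). Leaving out BMH-21 5 h replicate 1, BMH-21 5 h replicate 2 or untreated replicate 1 also ended that call, with log2 changes of -1.26, -0.95 and -0.91. With the unlabelled carry-over subtracted it was -1.32 (limma adjusted p = 0.0128).

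Set directly against 1 h of BMH-21, the 45S level at 5 h was 1.10 higher in log2 on the spike-in scale (SE 0.294, limma adjusted p = 0.00541). Relative to mRNA the difference was 0.65 (SE 0.215, limma adjusted p = 0.0663), which did not pass the threshold of 0.05. The 2 times were labelled over the same 30 min, at the end of each treatment.

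All 5 annotated 45S units were lower after BMH-21 than in untreated cells, and each passed the test. These units are near-identical copies, so how reads were shared among them is uncertain. The fall was greatest for RNA45SN3 (chr21:8389035-8402343, plus strand), with 113300 and 96754 mRNA-scaled tags after BMH-21 and 376920 and 343040 in untreated cells (log2 change -1.78, SE 0.117, limma adjusted p = 6.50e-06). RNA45SN4, on an unlocalised scaffold of chromosome 22, held the most tags and had the smallest fall, with 2604000 and 2359600 mRNA-scaled tags after BMH-21 against 5968900 and 5049800 in untreated cells (log2 change -1.15, SE 0.196, limma adjusted p = 0.0078). RNA45SN1, RNA45SN2 and RNA45SN5 had log2 changes of -1.76, -1.66 and -1.60. RNA45SN4 on the spike-in scale was at 52.4% and 54.5% of untreated, while the other 4 units were between 30.1% and 40.6%.

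The 5S ribosomal RNA, which joins the large ribosomal subunit, had a higher mean after BMH-21 with a wide spread. Its level on the spike-in scale was 400.8% and 137.3% of the equally numbered untreated library, against 7.24% and 5.42% without 4-SU. Relative to mRNA it was 399 and 229.9 mRNA-scaled tags after BMH-21 and 119.7 and 195.1 in untreated cells. The groups did not overlap, but replicate 1 after BMH-21 was much further from untreated cells than replicate 2. The log2 change on the spike-in scale was 1.23 (SE 0.319, limma adjusted p = 0.0187, replicate block), and it did not pass without the block (adjusted p = 0.14). It was 0.59 without BMH-21 5 h replicate 1 (adjusted p = 0.418) and 0.90 without untreated replicate 1 (adjusted p = 0.156). Relative to mRNA it was 0.99 (SE 0.344, limma adjusted p = 0.183), which did not pass.

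Summed over tRNA genes, the adaptors that carry amino acids to the ribosome, the level was 222% and 120.7% of untreated cells on the spike-in scale. Cells without 4-SU gave 0.349% and 0.354%. Replicate 1 was again the higher of the 2 BMH-21 libraries. The log2 change on this scale was 0.71 (SE 0.177, limma adjusted p = 0.0149, replicate block), and it did not pass without the block (adjusted p = 0.151). It was 0.47 without BMH-21 5 h replicate 1 (adjusted p = 0.297) and 0.41 without untreated replicate 1 (adjusted p = 0.201). Relative to mRNA the sum was 4984 and 3449 mRNA-scaled tags after BMH-21 and 2697 and 3329 in untreated cells (log2 change 0.47, SE 0.215, limma adjusted p = 0.321). Against 1 h of BMH-21, the tRNA sum at 5 h was 0.67 higher in log2 on the spike-in scale (SE 0.177, limma adjusted p = 0.00497). Relative to mRNA the difference was 0.215 (SE 0.215, limma adjusted p = 0.56), which did not pass. On the spike-in scale the 1 h libraries were at 147.4% and 71.84% of untreated cells, so libraries of the 2 times overlapped. The mRNA table on that scale was 0.44 higher at 5 h than at 1 h (SE 0.158, limma adjusted p = 0.0296). The mRNA table as a whole was at 118.1% and 114.1% of untreated cells on that scale (log2 change 0.21, SE 0.158, limma adjusted p = 0.367). The tRNA sum did not differ by limma from that of ML-60218 5 h cells. Its log2 difference was 0.30 on the spike-in scale (adjusted p = 0.21) and -0.05 relative to mRNA (adjusted p = 0.923).

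Of 631 tRNA genes, 63 passed the filter, and 52 of these had a log2 change above 0 relative to mRNA (median 0.49). By limma 5 of the 63 passed (7.94%), 2 higher and 3 lower after BMH-21, and by edgeR's quasi-likelihood test 9 passed (14.3%). Leaving out a library gave 0 calls without BMH-21 5 h replicate 1 or untreated replicate 1, 3 without BMH-21 5 h replicate 2 and 1 without untreated replicate 2. Relative to the spike-in, 22 of the 63 rose (34.9%) and 4 fell (6.35%) in limma with the replicate block, while without the block 5 rose and 2 fell. Many tRNA genes have near-identical copies, so values of single genes are uncertain where reads could match several.

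The 3 tRNA genes that fell were an isoleucine and a pair of glycine tRNA genes. Few tags lie behind them, with means over the 4 libraries of 42.4, 29.6 and 19.2 in the order below. None of these means reaches 50 tags, and with that filter no tRNA gene was called lower. tRNA-Ile-TAT-1-1 (chr19:39412167-39412260, minus strand) had 2.28 and 1.67 mRNA-scaled tags after BMH-21, against 16.1 and 18.7 in untreated cells (log2 change -2.86, SE 0.461, limma adjusted p = 0.00633). It is 1 of 3 Ile-TAT genes tested, and the other 2 had log2 changes of 1.23 and 1.27, neither of which passed. tRNA-Gly-TCC-2-2 (chr1:161447584-161447656, minus strand) had 2.16 and 2.47 mRNA-scaled tags after BMH-21 and 12.4 and 9.38 in untreated cells (log2 change -2.005, SE 0.334, limma adjusted p = 0.00702). tRNA-Gly-TCC-2-3, which lies on the same strand of chromosome 1, had 1.33 and 2.33 after BMH-21 and 4.87 and 7.19 in untreated cells (log2 change -1.50, SE 0.332, limma adjusted p = 0.0334). In all 3 genes both BMH-21 libraries lay under both untreated libraries. Groups also did not overlap in many tested tRNA genes that did not pass, so this is a description. The 3 genes that fell were also lower than in ML-60218 5 h cells, with limma adjusted p of 0.0242, 0.0173 and 0.00817. After 1 h of BMH-21 their log2 changes against untreated cells were already -4.47, -2.605 and -1.16 (limma adjusted p = 0.000274, 0.00172 and 0.0598).

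The 2 that rose read leucine and serine codons. tRNA-Leu-TAG-3-1 had 25.6 and 15.3 mRNA-scaled tags after BMH-21, against 3.36 and 7.09 in untreated cells (log2 change 1.91, SE 0.366, limma adjusted p = 0.0158). tRNA-Ser-GCT-4-3 had 10.7 and 6.04 after BMH-21 and 2.18 and 2.92 in untreated cells (log2 change 1.496, SE 0.361, limma adjusted p = 0.04997). The groups did not overlap in either gene, which was also so in many tested tRNA genes that did not pass. Their means over the 4 libraries were 95 and 39.5 tags. In ML-60218 5 h cells the leucine and serine genes had log2 changes against untreated cells of 2.34 and 1.37. After 1 h of BMH-21 these were 2.17 and 1.76. Neither differed by limma between BMH-21 and ML-60218 at 5 h (adjusted p = 0.552 and 0.89). Past edgeR's threshold but not limma's were tRNA-His-GTG-1-7, tRNA-Tyr-GTA-5-1 and tRNA-Val-AAC-1-5, which were higher, and tRNA-Lys-CTT-10-1, which was lower, with edgeR log2 changes of 1.34, 1.502, 2.16 and -1.11. DESeq2 also called tRNA-Lys-CTT-10-1 (adjusted p = 0.00254) and did not call the other 3. tRNA-His-GTG-1-7 lies within the gene SHF and tRNA-Tyr-GTA-5-1 within TRIM55. tRNA-Ser-GCT-4-3 overlaps MIR4521, and tRNA-Lys-CTT-10-1 overlaps LOC124904704. Tags of these other genes cannot be told apart from those of the tRNA genes. By anticodon, 6 of 6 His-GTG genes (median 1.09) and 5 of 5 Leu-CAA genes (median 1.06) had log2 changes above 0. So did 9 of 12 Tyr-GTA genes (median 0.29) and 52 of all 63 tested tRNA genes (median 0.49). The tested His-GTG genes all bear the name His-GTG-1, and near-identical copies may share reads, so they are not separate observations. Tyr-GTA genes held 43.4% and 41.8% of the tags on tested tRNA genes after BMH-21, and 55.2% and 44.1% in untreated cells.

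**Figure D2:**
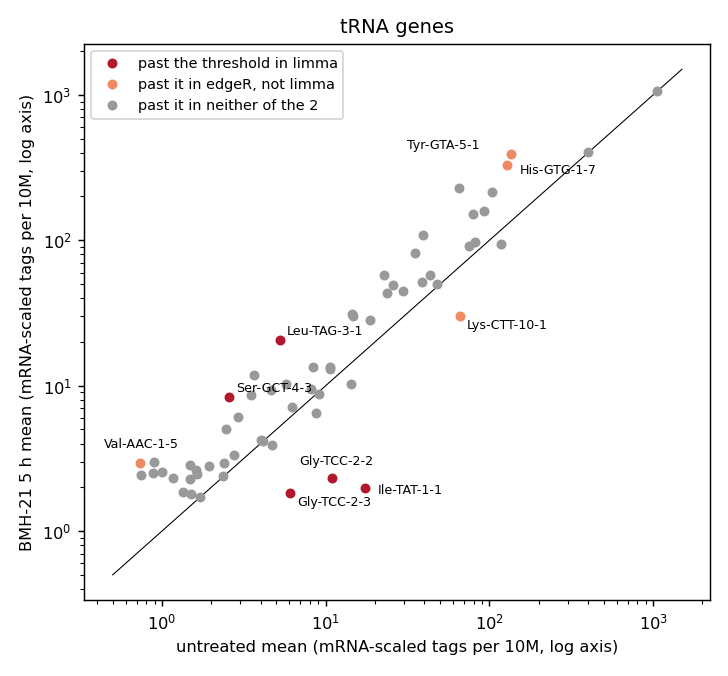
Mean level of each of the 63 tested tRNA genes after 5 h of BMH-21 (vertical axis) and in untreated cells (horizontal axis), in mRNA-scaled tags per 10M on log axes, with the line of equal levels. Most points lie above the line, and tRNA-Ile-TAT-1-1 and both Gly-TCC genes lie furthest under it.

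Among mRNA-table genes, 4896 of 9944 passed the filter. Limma found 44 higher (0.899%) and 63 lower (1.29%) after BMH-21 than in untreated cells, and 727 had an unadjusted p under 0.05. EdgeR, run on the recovered tags with its quasi-likelihood test, found 91 higher (1.86%) and 103 lower (2.10%), and 106 of limma's 107 genes were among them. DESeq2 found 144. The limma count was 7 without BMH-21 5 h replicate 1, 36 without BMH-21 5 h replicate 2, 16 without untreated replicate 1 and 10 without untreated replicate 2, and 1 when the DRB libraries shared the spread. Groups did not overlap in 2471 of the 4896 genes (50.5%), so where this is stated below for a gene that passed, it is a description. On the spike-in scale, where the median gene was 0.24 higher, 612 genes were higher (12.5%) and 47 lower (0.96%) in limma with the replicate block, while without the block 27 were higher and 12 lower.

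Genes that were higher after BMH-21 covered a median of 46.0 kb and those that were lower 32.8 kb, against 26.1 kb for all tested genes. With genes split into 4 groups of nearly equal size by region length, median log2 changes were -0.018, 0.001, 0.015 and 0.022 from shortest to longest. Set against 1 h of BMH-21, 356 genes were higher (7.27%) and 281 lower (5.74%) at 5 h. Set against 5 h of ML-60218, 55 were higher (1.12%) and 130 lower (2.66%) with BMH-21. The 1 h and ML-60218 comparisons with untreated cells share the untreated libraries, so their values for a gene stand side by side below as description.

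**Figure D3:**
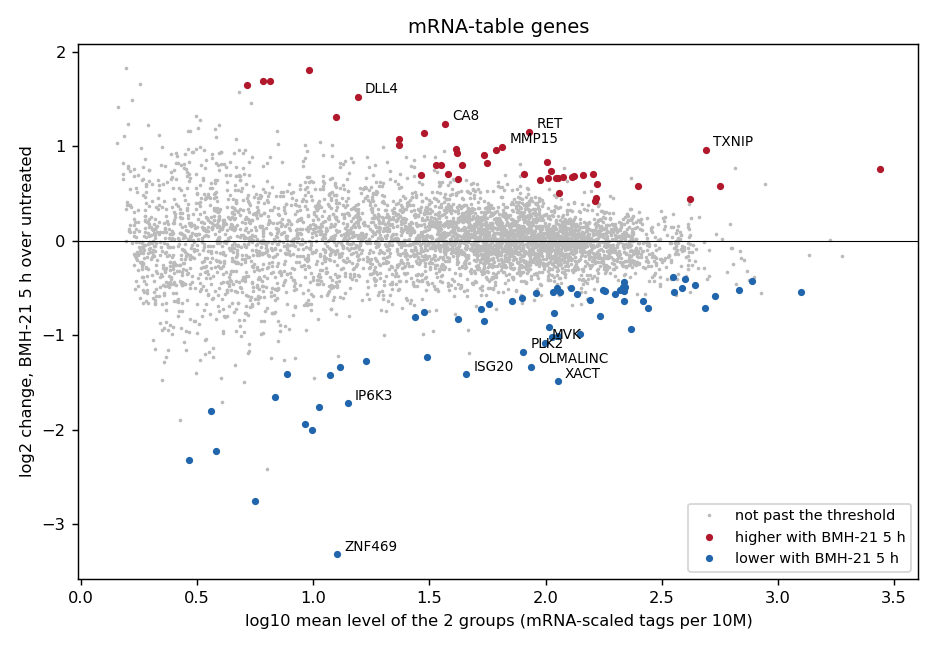
Log2 change after 5 h of BMH-21 against the log10 mean level of both groups for the 4896 tested mRNA-table genes, with the 44 higher and 63 lower genes of limma in colour. Some genes are labelled, among them ZNF469 with the greatest fall (log2 change -3.32) and DLL4 with a log2 change of 1.52.

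The 12 genes with the greatest rise among those with a mean of 50 tags or more, and the 12 with the greatest fall, were followed in each library. All 24 had groups that did not overlap, which the choice required, and all 24 also passed edgeR. Of these 24, 6 still passed limma without BMH-21 5 h replicate 1, 14 without BMH-21 5 h replicate 2, 7 without untreated replicate 1 and 9 without untreated replicate 2. Counted regions of 9 of the 24 overlap another annotated gene, and without a strand option in the counting their tags cannot be told apart.

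The genes that rose included a Notch ligand, a receptor kinase and a membrane metalloprotease. DLL4, a ligand of Notch receptors (chr15:40929392-40939072, plus strand), had 25.0 and 21.6 mRNA-scaled tags after BMH-21, against 7.06 and 8.55 in untreated cells (2.87-fold, log2 change 1.52, SE 0.241, limma adjusted p = 0.00633). RET, a receptor tyrosine kinase for ligands of the GDNF family (chr10:43077026-43130351, plus strand), had 110.6 and 123 after BMH-21 and 44.98 and 60.5 in untreated cells (2.23-fold, log2 change 1.15, SE 0.148, limma adjusted p = 0.00171). MMP15, a membrane-anchored matrix metalloprotease, had 85.0 and 88.2 after BMH-21 and 41.6 and 44.7 in untreated cells (log2 change 0.996, SE 0.168, limma adjusted p = 0.00702). These genes were low in both untreated libraries and high in both BMH-21 libraries. Each was also higher at 5 h than at 1 h of BMH-21, by 1.30, 1.26 and 1.39 in log2 (limma adjusted p = 0.00511, 0.000505 and 0.000515). In ML-60218 5 h cells the same genes had log2 changes against untreated cells of 1.64, 1.07 and 1.15.

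LGALS1, which encodes the sugar-binding protein galectin-1, had 58.6 and 51.2 mRNA-scaled tags after BMH-21, against 28.7 and 28.3 in untreated cells (log2 change 0.93, SE 0.176, limma adjusted p = 0.0148). MDGA1, a cell-surface protein anchored by a lipid, had 30.0 and 33.4 after BMH-21 and 12.3 and 17.7 in untreated cells (log2 change 1.08, limma adjusted p = 0.0171). ATP2A3, a calcium pump of the endoplasmic reticulum, had 25.8 and 37.5 after BMH-21 and 13.4 and 17.2 in untreated cells (log2 change 1.01, limma adjusted p = 0.04997). The higher BMH-21 replicate was not the same in each of these genes. IGFBPL1, a relative of the insulin-like growth factor binding proteins, had 35.9 and 46.8 after BMH-21 and 17.1 and 19.7 in untreated cells (log2 change 1.14, limma adjusted p = 0.00702). CA8, a relative of the carbonic anhydrases that lacks their activity, had 52.2 and 51.8 after BMH-21 and 20.8 and 22.7 in untreated cells (log2 change 1.24, limma adjusted p = 0.00549). Both BMH-21 libraries lay above both untreated libraries in IGFBPL1 and CA8. CA8 was also higher than in ML-60218 5 h cells (limma adjusted p = 0.0384). LGALS1, MDGA1, ATP2A3 and IGFBPL1 did not differ from those cells (limma adjusted p = 0.302, 0.648, 0.26 and 0.852). After ML-60218 their log2 changes against untreated cells were 1.27, 1.28, 1.52 and 1.05, and that of CA8 was 0.44. RP11-427M20.1, a locus named after its clone that overlaps PABPC4L, had 14.3 and 21.96 after BMH-21 and 6.03 and 7.72 in untreated cells (log2 change 1.32, limma adjusted p = 0.0475). Its unlabelled carry-over was 1.87% and 21.5% of untreated cells on the spike-in scale, the widest range among the genes that rose. After ML-60218 at 5 h its log2 change was 0.79, and the difference between the inhibitors did not pass (limma adjusted p = 0.378).

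TXNIP and ARRDC4, alpha-arrestins that limit glucose uptake, were among the genes that rose. TXNIP, which also binds thioredoxin (counted region chr1:145992434-145996600, minus strand), had 666 and 628 mRNA-scaled tags after BMH-21 and 321 and 341 in untreated cells (1.95-fold, log2 change 0.96, SE 0.163, limma adjusted p = 0.00702). ARRDC4 had 57.8 and 52.1 after BMH-21, against 29.9 and 25.8 in untreated cells (1.96-fold, log2 change 0.97, SE 0.187, limma adjusted p = 0.0158). Replicates lay close together in both groups. Both genes were higher than in ML-60218 5 h cells, with limma adjusted p of 0.00809 for TXNIP and 0.00817 for ARRDC4. Their log2 changes against untreated cells were -0.01 and -0.14 after ML-60218, and -0.39 and 0.07 after 1 h of BMH-21. SESN3, a sestrin that restrains the growth regulator mTORC1, had 90.6 and 71.0 after BMH-21 and 42.0 and 40.0 in untreated cells (log2 change 0.96, SE 0.177, limma adjusted p = 0.0132). After ML-60218 its log2 change was 0.52, and the difference between the inhibitors did not pass (limma adjusted p = 0.19).

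The promoter of TXNIP holds a pair of E-box-like sites of the kind bound by the glucose-responsive factors MondoA and ChREBP, and is shown because the gene rose together with ARRDC4. The window runs from 250 bases before to 50 bases after the start nearest the counted region, from RefSeq on GRCh38.p14 (chr1:145996530-145996829, minus strand, 5′ to 3′ along the gene). Capitals mark the match to CACGNG, any 5 bases and CACGNG again, searched on both strands, whose first base lies at -88 from the start.
TXNIP: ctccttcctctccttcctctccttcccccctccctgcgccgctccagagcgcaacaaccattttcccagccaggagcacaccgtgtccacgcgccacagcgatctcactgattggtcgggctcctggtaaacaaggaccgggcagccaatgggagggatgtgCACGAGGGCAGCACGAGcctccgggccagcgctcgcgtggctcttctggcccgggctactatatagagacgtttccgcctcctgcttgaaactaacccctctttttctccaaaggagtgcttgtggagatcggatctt
This pattern was found in 20 of 35116 promoter windows of the same length (0.057%), and no match was found in the window of ARRDC4. A match is a description of letters, not of binding.

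The greatest fall was that of ZNF469, and XACT and OLMALINC, long noncoding RNAs, were also among the 12. ZNF469, a zinc finger gene (chr16:88427470-88440757, plus strand), had 1.88 and 1.89 mRNA-scaled tags after BMH-21, against 20.98 and 25.9 in untreated cells (0.100 of the untreated level, log2 change -3.32, SE 0.381, limma adjusted p = 0.000777). Few tags lie behind this gene, whose mean of 54.1 tags over the 4 libraries is close to the minimum of 50 for naming. XACT, a noncoding RNA gene on X (chrX:113616299-113938218, minus strand), had 58.4 and 59.4 after BMH-21 and 185.8 and 147.9 in untreated cells (0.357 of untreated, log2 change -1.48, SE 0.176, limma adjusted p = 0.000956). OLMALINC, another long noncoding RNA, had 49.5 and 48.1 after BMH-21 and 132.8 and 114.7 in untreated cells (log2 change -1.33, SE 0.164, limma adjusted p = 0.00125). In these 3 genes the BMH-21 replicates were nearly equal and lay far under both untreated libraries. OLMALINC and ZNF469 were also lower than in ML-60218 5 h cells (limma adjusted p = 0.00939 and 0.00848), whereas XACT had a log2 change of -1.88 against untreated cells after ML-60218.

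ISG20, an exonuclease induced by interferon, had 22.8 and 26.5 mRNA-scaled tags after BMH-21, against 69.3 and 63.5 in untreated cells (log2 change -1.41, SE 0.148, limma adjusted p = 0.000414). PLK2, a polo-like kinase and known p53 target, had 44.1 and 54.2 after BMH-21 and 100.4 and 122 in untreated cells (log2 change -1.17, SE 0.173, limma adjusted p = 0.00498). TNFRSF10C, a decoy receptor for the death ligand TRAIL, had 5.55 and 6.90 after BMH-21 and 15.8 and 19.1 in untreated cells (log2 change -1.42, SE 0.342, limma adjusted p = 0.04997). PLK2 and TNFRSF10C differed in sign at the 2 times. After 1 h of BMH-21 their log2 changes against untreated cells were 0.89 and 1.69, and the difference between 5 h and 1 h was -2.06 and -3.11 (limma adjusted p = 0.000123 and 0.000356). IP6K3, an inositol phosphate kinase, had 3.72 and 9.31 after BMH-21 and 14.9 and 28.5 in untreated cells (log2 change -1.72, SE 0.384, limma adjusted p = 0.0342). Its difference from 1 h was -2.74 (limma adjusted p = 0.00131). After ML-60218 at 5 h, ISG20, PLK2, TNFRSF10C and IP6K3 had log2 changes against untreated cells of -1.69, -1.31, -1.64 and -1.89. None of these genes differed between the inhibitors at 5 h (limma adjusted p = 0.319, 0.713, 0.768 and 0.843).

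ZMAT4, LIPI, MVK, LA16c-366D1.3 and RP1-29C18.10 completed the named falls, with log2 changes of -1.33, -1.23, -1.08, -1.27 and -1.76. LIPI, a phospholipase, had 17.3 and 18.9 mRNA-scaled tags after BMH-21 and 38.6 and 48.4 in untreated cells (limma adjusted p = 0.0158). ZMAT4 had 7.66 and 6.69 after BMH-21 and 21.3 and 16.6 in untreated cells (limma adjusted p = 0.00702), from a mean of 64.5 tags. Its unlabelled carry-over was 1.29% and 20.85% of untreated cells on the spike-in scale, and its region overlaps LOC107986938. The loci LA16c-366D1.3 and RP1-29C18.10, named after clones, overlap CAPN15 and MIR3667HG among others. LA16c-366D1.3 had 9.16 and 10.3 after BMH-21, against 24.5 and 23.6 in untreated cells (limma adjusted p = 0.00633). RP1-29C18.10 had 4.11 and 4.94 after BMH-21, against 14.1 and 19.2 in untreated cells (limma adjusted p = 0.00498). In each of these 5 genes both BMH-21 libraries lay under both untreated libraries. After ML-60218 at 5 h, ZMAT4, LIPI and RP1-29C18.10 had log2 changes of -0.85, -1.01 and -1.01, and did not differ between the inhibitors. MVK and LA16c-366D1.3, with -0.335 and 0.05 after ML-60218, were lower with BMH-21 (limma adjusted p = 0.0354 and 0.004).

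**Figure D4:**
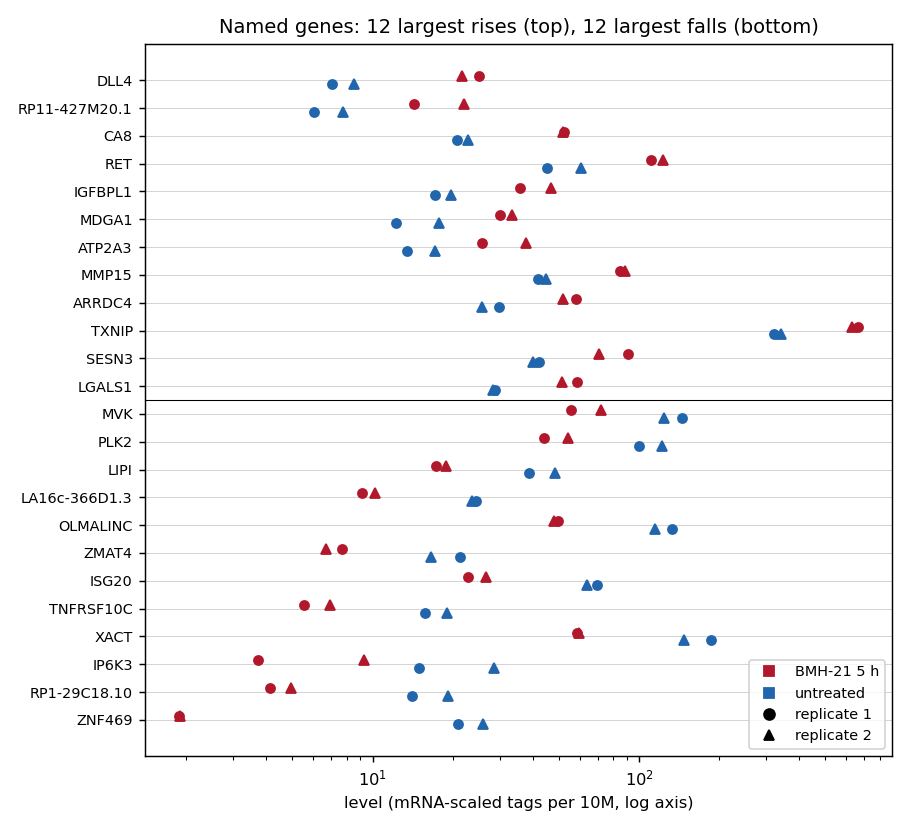
Level of the 24 named genes in each library, in mRNA-scaled tags per 10M on a log axis, with the 12 rises above the line and the 12 falls under it. The 2 BMH-21 5 h libraries and the 2 untreated libraries do not overlap in any of them, and ZNF469 shows the widest gap (1.88 and 1.89 against 20.98 and 25.9).

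Some genes of amino acid synthesis, amino acid transport and tRNA charging fell. Of 37 listed, 13 were tested, and 6 fell (PSAT1, GARS, SARS, SLC7A1, ASNS and PHGDH), none rose and 7 did not pass; the shares over all tested genes were 1.29% lower and 0.899% higher. The median log2 change of the 13 was -0.39, against 0.01 for all tested genes, and 10 of 13 were below 0. The 6 calls became 2 without BMH-21 5 h replicate 2 and 0 without BMH-21 5 h replicate 1, untreated replicate 1 or untreated replicate 2, with medians from -0.40 to -0.37. On the spike-in scale with the replicate block 4 fell and 1 rose, with a median of -0.15, where the median of all genes was 0.24.

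PSAT1 and PHGDH are enzymes of serine synthesis. PSAT1 had 210.5 and 207.5 mRNA-scaled tags after BMH-21, against 337 and 347 in untreated cells (log2 change -0.71, SE 0.106, limma adjusted p = 0.00498). PHGDH had 161 and 177 after BMH-21 and 256 and 272 in untreated cells (log2 change -0.64, SE 0.144, limma adjusted p = 0.0365). ASNS, which makes asparagine, had 27.5 and 32.4 after BMH-21 and 59.1 and 48.2 in untreated cells (log2 change -0.83, SE 0.161, limma adjusted p = 0.0167). In each gene the BMH-21 libraries were the 2 lowest. GARS and SARS charge tRNAs with glycine and serine. GARS had 122 and 127 after BMH-21, against 211 and 223 in untreated cells (log2 change -0.80, SE 0.13, limma adjusted p = 0.00661). SARS had 104.9 and 115.5 after BMH-21 and 159.6 and 165.7 in untreated cells (log2 change -0.56, SE 0.109, limma adjusted p = 0.0167). SLC7A1, a transporter of arginine and lysine, had 277 and 305 after BMH-21 and 419.9 and 425 in untreated cells (log2 change -0.54, SE 0.105, limma adjusted p = 0.0167). EPRS and NARS, with log2 changes of -0.39 and -0.27, and GPT2, with 0.18, did not pass.

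The other inhibitor at 5 h gave another picture for this list. Set directly against ML-60218 5 h, 8 of the 13 genes were lower with BMH-21, where 2.66% of all tested genes were. After ML-60218 the log2 changes against untreated cells were 0.69 for ASNS and 0.61 for PHGDH, and the differences between the inhibitors had limma adjusted p of 0.000398 and 0.000711. Against 1 h of BMH-21, 7 of the 13 were lower at 5 h, where 5.74% of all tested genes were. PHGDH was not among them, with a log2 change of -0.38 at 1 h and an adjusted p of 0.278 for the difference.

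Promoters of the 6 genes that fell were searched for TGATGNAA, on both strands, a pattern of the amino acid response element that ATF4 and its partners bind. All 6 had a RefSeq entry and 2 held the pattern, which was found in 1270 of 35116 promoter windows (3.62%). Both are printed 5′ to 3′ along the gene, over the same window as above, with the match in capitals. ASNS (chr7:97872359-97872658, minus strand) has it from -68 and SLC7A1 (chr13:29595639-29595938, minus strand) from base 8 after the start.
ASNS: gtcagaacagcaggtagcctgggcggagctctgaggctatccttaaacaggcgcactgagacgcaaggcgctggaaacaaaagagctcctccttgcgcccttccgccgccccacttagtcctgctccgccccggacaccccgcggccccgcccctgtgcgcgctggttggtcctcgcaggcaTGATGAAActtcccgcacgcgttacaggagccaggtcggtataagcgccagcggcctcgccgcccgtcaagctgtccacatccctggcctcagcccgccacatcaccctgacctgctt
SLC7A1: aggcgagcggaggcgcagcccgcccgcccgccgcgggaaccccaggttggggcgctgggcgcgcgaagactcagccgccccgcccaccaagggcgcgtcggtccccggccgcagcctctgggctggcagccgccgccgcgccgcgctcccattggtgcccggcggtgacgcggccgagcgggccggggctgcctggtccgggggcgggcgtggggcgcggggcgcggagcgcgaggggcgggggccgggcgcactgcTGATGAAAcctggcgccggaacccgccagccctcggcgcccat
The windows of PSAT1, PHGDH, GARS (GARS1 in RefSeq) and SARS (SARS1) held no match.

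Stress effectors controlled by ATF4, a factor of the integrated stress response, gave 10 tested genes of 20 listed, and none passed limma. Their median log2 change was -0.46, and 8 of 10 were below 0. SESN2 (-0.57) was among these and is counted again with the p53 targets below. By edgeR 3 fell, where 2.10% of all tested genes did, and DESeq2 called STC2 and PPP1R15A of these but not CHAC1. CHAC1, which degrades glutathione, had 31.5 and 30.9 mRNA-scaled tags after BMH-21, against 49.7 and 73.7 in untreated cells (edgeR log2 change -1.01, edgeR adjusted p = 0.0461). PPP1R15A, the phosphatase subunit that ends the stress response, had 213 and 221 after BMH-21 and 318 and 323 in untreated cells (edgeR adjusted p = 0.0450). STC2, a secreted glycoprotein, had 279 and 309.5 after BMH-21 and 433 and 442 in untreated cells (edgeR adjusted p = 0.0396). The BMH-21 libraries were the 2 lowest in each. All 3 were lower after BMH-21 than after ML-60218 at 5 h by limma, with the widest difference for CHAC1, whose log2 change after ML-60218 was 1.82. Of the 10 genes, 6 were lower than after ML-60218, where 2.66% of all tested genes were.

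Some genes that p53 activates were lower after 5 h of BMH-21 than in untreated cells. Of 25 listed, 7 were tested: ZMAT3 and AEN fell, none rose, and FDXR, GADD45A, SESN2, BAX and TIGAR did not pass limma, where 1.29% of all tested genes fell. All 7 log2 changes were below 0, with a median of -0.57, and this count of 2 became 0 without BMH-21 5 h replicate 1 or without untreated replicate 2. Without untreated replicate 1, GADD45A and SESN2 passed in place of ZMAT3 and AEN. The median without untreated replicate 1 was -0.99 and without untreated replicate 2 -0.30. ZMAT3, an RNA-binding target of p53, had 69.3 and 81.1 mRNA-scaled tags after BMH-21, against 147.9 and 153.9 in untreated cells (log2 change -1.004, SE 0.161, limma adjusted p = 0.00633). AEN, a nuclease induced by p53, had 948 and 1097 after BMH-21 and 1353 and 1626 in untreated cells (log2 change -0.54, SE 0.113, limma adjusted p = 0.0247). The groups did not overlap in ZMAT3 or AEN, as in 50.5% of all tested mRNA-table genes. FDXR, a mitochondrial reductase, had 21.6 and 32.7 after BMH-21 and 40.6 and 91.7 in untreated cells, and fell by edgeR alone (adjusted p = 0.0388). GADD45A, which acts in growth arrest and DNA repair, had 78.3 and 101.4 after BMH-21, against 109.8 and 269 in untreated cells (log2 change -0.94, limma adjusted p = 0.166). Untreated replicate 2 was the highest of the 4 libraries in each of these 4 genes.

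At 1 h of BMH-21 the median log2 change of the 7 p53 targets against untreated cells was 0.69, and 3 of them (ZMAT3, GADD45A and TIGAR) passed limma at that time. Set directly against 1 h, all 7 were lower at 5 h by limma, where 5.74% of all tested genes were. GADD45A had a log2 change of 1.24 at 1 h, and its difference between 5 h and 1 h had a limma adjusted p of 0.00137. ZMAT3 was 1.69 lower in log2 at 5 h than at 1 h (limma adjusted p = 0.00016). Against ML-60218 5 h none of the 7 differed by limma, and their median log2 change after ML-60218 was -0.49. The untreated libraries enter the 1 h, 5 h and ML-60218 values alike.

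**Figure D5:**
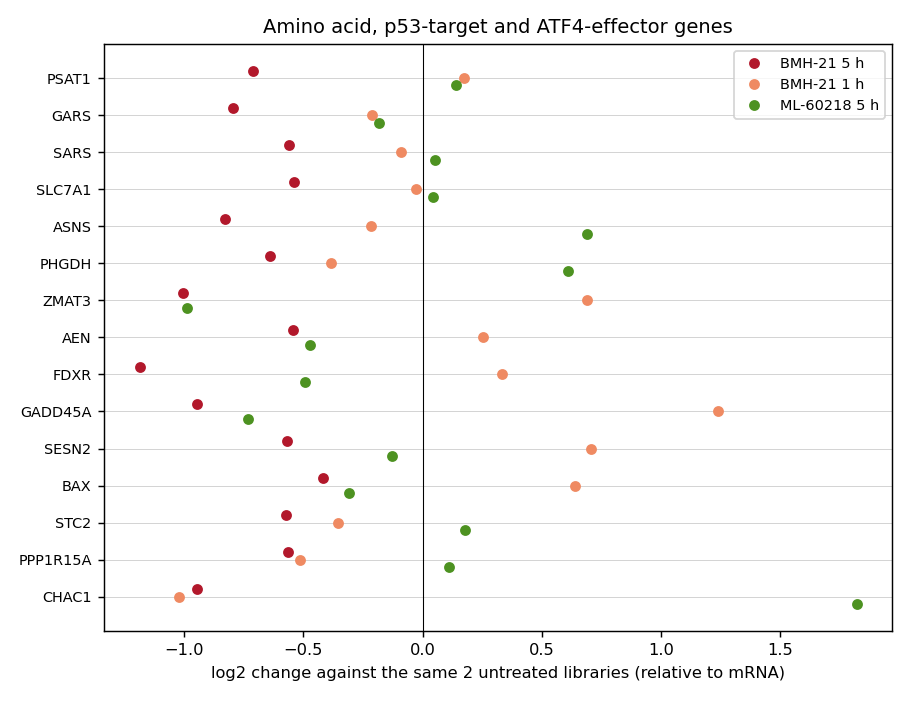
Log2 change against the same 2 untreated libraries, relative to mRNA, of 15 genes after 5 h of BMH-21, 1 h of BMH-21 and 5 h of ML-60218. Shown are the 6 amino acid and tRNA charging genes that passed limma, 6 of the 7 tested p53 targets (without TIGAR) and the 3 ATF4 effectors that passed edgeR, so members with log2 changes above 0, such as GPT2 (0.18), are not drawn. At 1 h the points of GADD45A (1.24) and SESN2 (0.71) lie right of 0.

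Of 4 tested genes of sterol synthesis, 2 fell and 2 did not pass (median log2 change -0.82), where 1.29% of all tested genes fell. MVK, which phosphorylates mevalonate, had 55.8 and 71.8 mRNA-scaled tags after BMH-21, against 144.8 and 124 in untreated cells (log2 change -1.08, SE 0.167, limma adjusted p = 0.00597). MSMO1, a later oxidase of the pathway, had 74.4 and 63.8 after BMH-21 and 177 and 110.5 in untreated cells (log2 change -1.02, SE 0.189, limma adjusted p = 0.0135). In both genes the BMH-21 libraries lay under the untreated ones. HSD17B7 and SC5D had log2 changes of -0.62 and -0.30. The 2 calls became 0 without BMH-21 5 h replicate 1 or untreated replicate 1, and 1 without BMH-21 5 h replicate 2.

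Among genes that build the ribosome, few passed the test. All 16 tested genes of cytosolic ribosomal proteins had log2 changes below 0 (median -0.20), and 1 of them, RPL14, fell in limma. RPL14 had 347 and 337 mRNA-scaled tags after BMH-21, against 463 and 444 in untreated cells (log2 change -0.41, SE 0.092, limma adjusted p = 0.0365). RPL26 passed edgeR (adjusted p = 0.0496) and DESeq2 (adjusted p = 0.0255) but not limma (adjusted p = 0.0697). The limma call of RPL14 was lost with any 1 of the 4 libraries left out, and the shares over all tested genes were 1.29% lower in limma and 2.10% in edgeR. The median of the 16 on the spike-in scale was 0.04 and none passed, so the sign of the shift depends on the scale. At 5 h, 10 of the 16 were lower than at 1 h of BMH-21, where 5.74% of all tested genes were, and RPL11 was among them (limma adjusted p = 0.00724). Of 8 nucleolar genes of ribosome assembly, none passed and 6 were below 0 (median -0.23), with DDX21, an RNA helicase, at -0.37 (limma adjusted p = 0.058) and the methyltransferase FBL at -0.51 (limma adjusted p = 0.124). The 3 nucleolar genes that differed from ML-60218 5 h were higher with BMH-21, DDX21 and the helicase DDX10 among them (limma adjusted p = 0.0283 and 0.036).

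Of the genes for the polymerase machineries, POLR3E, a subunit of RNA polymerase III, rose. It had 505 and 457 mRNA-scaled tags after BMH-21, against 347 and 363 in untreated cells (log2 change 0.44, SE 0.094, limma adjusted p = 0.0283), and its log2 change was 0.67 at 1 h and 0.39 after ML-60218. Both BMH-21 libraries lay above both untreated libraries, but the call was lost with any 1 of the 4 libraries left out. The other 4 tested genes of the polymerase III list and the 3 of the polymerase I list (TTF1, POLR1E and PTRF) did not pass, and their log2 changes lay between -0.26 and 0.13. None of 5 genes of polymerase II elongation passed (median 0.06).

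Single genes of other lists rose. CYP1B1, an oxidase induced through the aryl hydrocarbon receptor, had 11.1 and 9.38 mRNA-scaled tags after BMH-21, against 3.02 and 2.61 in untreated cells (3.24-fold, log2 change 1.69, SE 0.351, limma adjusted p = 0.0241), from a mean of 46.5 tags. CYP1A1, the other tested target of that receptor, had a log2 change of 0.69 that did not pass. HSPH1, a heat shock protein of the HSP110 family, had 128 and 131 after BMH-21 and 76.0 and 69.5 in untreated cells (log2 change 0.83, SE 0.132, limma adjusted p = 0.00633). It was the 1 of 5 tested heat shock genes to pass, where 0.899% of all tested genes rose, and 4 of these 5 were higher than at 1 h, where 7.27% of all tested genes were. HIST1H4H, a replication histone gene, had 3953 and 2991 after BMH-21 and 2137 and 1939 in untreated cells (log2 change 0.76, SE 0.153, limma adjusted p = 0.0213). In HIST1H4H and HSPH1 both BMH-21 libraries were above both untreated ones, where groups did not overlap in 50.5% of all tested genes. The call of CYP1B1 was lost with any 1 of the 4 libraries left out, that of HSPH1 with any but untreated replicate 1, and that of HIST1H4H with any but BMH-21 5 h replicate 2. HIST1H3E, the other histone gene of this cluster tested, had a log2 change of 0.80 (limma adjusted p = 0.167).

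Of 15 tested immediate early genes, KLF10 rose, IER5 and ZFP36L1 fell and 12 did not pass, where 0.899% of all tested genes rose and 1.29% fell. With a library left out no member rose, and 1 fell without untreated replicate 1 (IER5) and 0 without any of the other 3. KLF10, a target of TGF-beta signalling, had 127 and 137 mRNA-scaled tags after BMH-21, against 84.7 and 73.3 in untreated cells (log2 change 0.74, SE 0.161, limma adjusted p = 0.0308). IER5 had 194 and 217 after BMH-21 and 281 and 362 in untreated cells (log2 change -0.63, SE 0.134, limma adjusted p = 0.0261). ZFP36L1, which destabilises mRNAs with AU-rich elements, had 134 and 157 after BMH-21 and 187 and 231 in untreated cells (log2 change -0.52, limma adjusted p = 0.0475). None of the 3 genes overlapped between the groups, nor did 50.5% of all tested genes. KLF10 was 1.14 higher and IER5 0.72 lower in log2 at 5 h than at 1 h, with limma adjusted p of 0.00137 and 0.00517.

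The cell cycle lists held no gene that passed limma among 13 tested for DNA replication and 16 for mitosis, with median log2 changes of -0.11 and -0.01. CCNE1, the cyclin of entry into S phase, had 49.0 and 43.0 mRNA-scaled tags after BMH-21 and 28.7 and 32.1 in untreated cells and rose by edgeR alone (adjusted p = 0.0394). MKI67, a marker of dividing cells, had 647 and 727 after BMH-21 and 1005 and 1002 in untreated cells (log2 change -0.55, limma adjusted p = 0.12). Among 188 tested zinc finger genes named ZNF, ZNF442 rose and ZNF469 and ZNF783 fell (median -0.07), close to the shares of 0.899% higher and 1.29% lower over all tested genes, and with any 1 library left out ZNF469 alone passed. Of 10 tested receptor kinase and Notch genes RET and DLL4, both among the named rises, rose, where 0.899% of all tested genes did. The other 8 did not pass, and 5 of the 10 had log2 changes below 0 (median 0.08). Of 8 tested genes on the interferon list ISG20 and TNFRSF10C, both among the named falls, fell, where 1.29% of all tested genes did. TNFRSF10C, the decoy receptor for TRAIL, was counted here only because the list held it. The other 6 did not pass, and 6 of the 8 had log2 changes above 0 (median 0.22). With any 1 library left out ISG20 alone passed from that list. None of 3 genes of endoplasmic reticulum stress passed, nor did PGAM1, the 1 tested gene of glycolysis (log2 change -0.24).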

How the data were processed

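TT-chem-seq libraries of HAP1 cells were grouped by their labels, and the members and gene lists were chosen with earlier results of these data known. Per the submitters' processing notes, STAR 2.7.7a, HOMER, Trim Galore 0.6.5 and FastQC 0.11.9 were used with GRCh38 for human and R64 for yeast, and their order is not given in the sources used here. Per the file headers, the authors annotated regions with HOMER without a strand option. The authors deposited a signal column per library, headed as raw counts but holding tags scaled to 10M per library; the 45S table carries tags per 10M in the same way. They also deposited a ratio column, which divides each library by the equally numbered untreated one after scaling to the spike-in, and from which the spike-in factors were taken.

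Multiplied by the library total, all 138470 low mRNA values and all 9921 low tRNA values came out in steps of 0.5 tag (tolerance 0.005 in the unit deposited), so tags were recovered for filtering and for count tests. Genes with a mean of 10 tags or more over the 4 libraries compared were kept. Each deposited value was divided by the product of its library's mRNA sum and a TMM factor (edgeR 4.0.16), returned to the mean of those totals and tested as log2(value + 0.5) with limma 3.58.1 (trend) in R 4.3.3; fold changes of low genes depend on the added 0.5. The fit held 10 labelled libraries with group means: untreated, BMH-21 1 h and 5 h, and ML-60218 1 h and 5 h, without the DRB libraries. P-values were adjusted by Benjamini-Hochberg over all genes, 45S units and class sums, with a threshold of 0.05. Spike-in class levels were fitted with the replicate number as a block, since the ratios are defined only within a number. EdgeR's quasi-likelihood test and DESeq2 1.42.0 on recovered tags (whole tags, after rounding), other scales, pseudocounts (0.1 and 2), filters and sets of libraries were alternatives. The fits were also tested on simulated data. Same-numbered libraries deviated together with r = 0.15 between BMH-21 5 h and untreated cells. Over 10 pairs of groups r ran from 0.053 to 0.288, with 6 of them over 0.1. The main fit was run without the replicate number as a block, although these values do not show that the numbers share no effect. With the block, 221 mRNA-table genes were called in place of 107.

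Named genes passed limma, had a mean of at least 50 tags, did not overlap between the groups and had no symbol of the LOC, orf, FAM or KIAA kinds; 12 were taken in each direction, by size of log2 change. From each list, members that passed limma or edgeR and up to 3 others with the smallest p were taken. Lists covered targets of p53, amino acid and tRNA charging genes, stress effectors of ATF4, sterol synthesis, nucleolar, polymerase I, polymerase III, polymerase II elongation, immediate early, aryl hydrocarbon receptor, heat shock, endoplasmic reticulum stress, DNA replication, mitosis, glycolysis, receptor kinase and Notch, interferon and blood lineage genes, with histone, ribosomal protein and ZNF genes by symbol. Figures and motif searches used Python 3.11.15.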

Additional observations from a re-analysis of the deposited data

Results flagged for a closer look

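Of 61 results tested directly between 5 h and 1 h of BMH-21 in limma, 37 differed at an adjusted p under 0.05, 18 higher and 19 lower at 5 h. Over all tested mRNA-table genes 7.27% were higher and 5.74% lower. Many of the 61 were chosen for their values at 5 h, and the same 5 h libraries enter this comparison, so the count of 37 is a description. Each value below is the log2 level at 5 h minus that at 1 h, relative to mRNA, with 2 libraries in each group.

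Genes lower at 5 h were led by TNFRSF10C (-3.11), IP6K3 (-2.74), PLK2 (-2.06), ZNF469 (-1.98), ZMAT3 (-1.69), ZMAT4 (-1.56), ISG20 (-1.53) and FDXR (-1.52). XACT (-1.25), LIPI (-1.18), MSMO1 (-0.95), PSAT1 (-0.89), AEN (-0.79), OLMALINC (-0.74), IER5 (-0.72), ASNS (-0.61), GARS (-0.58), SLC7A1 (-0.51) and SARS (-0.47) followed. ZMAT3, FDXR and AEN are p53 targets, and PSAT1, ASNS, GARS, SLC7A1 and SARS belong to the amino acid and tRNA charging list.

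Genes higher at 5 h were led by LGALS1 (1.44), MMP15 (1.39), MDGA1 (1.37), TXNIP (1.35), DLL4 (1.30), RET (1.26), KLF10 (1.14), RP11-427M20.1 (1.10) and ATP2A3 (1.08). SESN3 (0.97), ARRDC4 (0.90), HSPH1 (0.77) and IGFBPL1 (0.71) followed. Of the 45S units, RNA45SN3 (1.15), RNA45SN2 (0.82), RNA45SN1 (0.74) and RNA45SN5 (0.73) were higher at 5 h, while RNA45SN4 did not pass. tRNA-Ile-TAT-1-1 was also higher at 5 h than at 1 h (1.61), with 2.28 and 1.67 mRNA-scaled tags at 5 h and 0.794 and 0 at 1 h.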

How the results depend on the processing

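The number of mRNA-table genes called depended on the libraries and the scale. It was 107 as reported, 194 with edgeR, 247 with only the 4 libraries compared, 34 with no filter, 39 on the spike-in scale without a block, 1 with all 14 labelled libraries, and from 7 to 36 with a library left out. All 107 genes were among the 247 and among the 221 called with the replicate block, which left all 24 named genes past the threshold. On the deposited values, where the median gene was 0.98 higher, it was 4079. On those values 12 genes named as lower had log2 changes above 0, below that shift: AEN 0.46, PSAT1 0.29, GARS 0.21, SARS 0.44, SLC7A1 0.46, ASNS 0.17, PHGDH 0.36, STC2 0.43, PPP1R15A 0.44, CHAC1 0.048, IER5 0.37 and ZFP36L1 0.48. The tRNA gene count was 5 as reported, 49 on deposited values, 3 with a pseudocount of 0.1, 0 with no filter or 14 libraries, 1 with at least 50 tags, 18 with 4 libraries, 10 with the replicate block, 9 with edgeR, 8 with DESeq2 and 0 to 3 with a library left out. The 45S fall relative to mRNA did not pass on the spike-in scale without a block (log2 change -1.10) or with no filter (-1.30), and ran from -1.46 to -1.23 with a library left out. The 5S sum passed on deposited values (1.99) and with 4 libraries (0.99), and the tRNA sum on deposited values (1.47). On the spike-in scale the 45S (-1.10), 5S (1.23) and tRNA (0.71) sums did not pass without the replicate block or with 14 libraries. The ratios are defined only within a replicate number, so without the block different numbers share no common scale. Why these calls were lost was not tested. With a library left out, a choice made after seeing the data, these sums ran from -1.30 to -0.91, from 0.59 to 1.86 and from 0.41 to 1.01. Depth limits low genes: the median called gene had 473 tags if higher and 589 if lower, against 240 over all tested genes.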

Other observations

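Among genes that passed limma after BMH-21 but were neither in the lists nor among the 24, some of known role were picked out after their values were seen. HNRNPC, an RNA-binding protein of the nucleus, had 646 and 674 mRNA-scaled tags after BMH-21 and 872 and 895 in untreated cells (log2 change -0.42, limma adjusted p = 0.0158). HNRNPF, a splicing regulator, had 539 and 581 after BMH-21, against 836 and 769 in untreated cells (log2 change -0.52, limma adjusted p = 0.00702). HNRNPR and SFPQ had log2 changes of -0.57 and -0.50. In these 4 genes, picked among those that passed, the groups did not overlap, as in 50.5% of all tested genes.

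PMAIP1, which encodes the death-promoting protein NOXA, had 37.9 and 39.4 mRNA-scaled tags after BMH-21 and 60.9 and 79.7 in untreated cells (log2 change -0.84, limma adjusted p = 0.0176). TERT, the catalytic subunit of telomerase, had 84.8 and 75.4 after BMH-21 and 130.6 and 142.9 in untreated cells (log2 change -0.77, limma adjusted p = 0.00498). FASN, the fatty acid synthase, had 378 and 362 after BMH-21 and 578 and 631 in untreated cells (log2 change -0.71, limma adjusted p = 0.0138). All 3 were lowest in the BMH-21 libraries. SLC30A1, a zinc exporter, had 91.0 and 95.7 after BMH-21 and 160.6 and 215 in untreated cells (log2 change -0.99, limma adjusted p = 0.00498).

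CELSR2, an adhesion receptor of the cadherin family, had 208 and 188 mRNA-scaled tags after BMH-21 and 120.2 and 120.9 in untreated cells (log2 change 0.71, limma adjusted p = 0.00498). LRIG1, a membrane inhibitor of receptor kinases, had 177 and 181 after BMH-21 and 108.4 and 112.6 in untreated cells (log2 change 0.69, limma adjusted p = 0.00518). IGFBP4, a binding protein of insulin-like growth factors, had 63.8 and 77.9 after BMH-21 and 35.1 and 40.1 in untreated cells (log2 change 0.90, limma adjusted p = 0.029). ADAMTS1, a secreted protease, had a log2 change of 0.67 (limma adjusted p = 0.0104). No share of genes of any of these kinds was compared with that of all genes.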
